A study of Mus musculus with 6 samples.

Results

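Notch signalling is a contact pathway between neighbouring cells, and 10 of its genes were followed here in bone marrow stromal cells (BMSCs) of young and aged mice. The genes were chosen by symbol, as the receptors Notch1, Notch2 and Notch3, the ligands Jag1 and Jag2, the target genes Hes1, Hey1, Hey2 and Heyl, and Rbpj, the DNA-binding protein of the pathway. All 10 had a probe set listing them as its only gene, out of 30702 such genes on the array. Cells came from digested mouse femurs and were sorted as positive for Sca-1 and CD29 and negative for CD45 and CD11b. They were then expanded in culture beyond the first passage before RNA was taken. There were 3 Affymetrix arrays from mice of 3 months (young) and 3 from mice of 18 months (aged). No treatment or genetic change is named for either age, strain and sex are not given in the sources used here, and the arrays of an age are called biological replicates without word of separate animals. The p-values therefore measure the spread between these arrays, which may be technical.

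In this pathway a ligand of the Jagged or Delta-like family on one cell binds a Notch receptor on the next. The receptor is then cut by an ADAM protease and by gamma-secretase, and its freed intracellular part enters the nucleus, where it joins RBPJ and a Mastermind protein to switch on repressor genes of the HES and HEY families. In marrow stroma, Notch signalling is known for holding mesenchymal progenitors back from becoming osteoblasts, and stromal Jagged 1 for contact with blood-forming cells.

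Jag1 was the member with the largest age difference, 1.78-fold higher in aged cells, and the receptors Notch1, Notch2 and Notch3 and the target Hes1 were higher by 0.15 to 0.42 on the log2 scale. Rbpj was lower, at 0.812 of its young level. Jag2, Hey1, Hey2 and Heyl did not pass the test. By limma with a Benjamini-Hochberg adjusted p under 0.05, 5 of the 10 members rose and 1 fell, beside 18.4% of the 20187 tested genes that rose and 22.1% that fell. The members were chosen with earlier results of these data known, so these shares are a description only. The median difference was 0.10 over the 10 members and 0.01 over all tested genes. The aged arrays lay wholly above the young ones for the 5 members that rose, as for 24.4% of tested genes, and wholly below for Rbpj, as for 26.9%. Tested against a difference of 0.3 on the log2 scale rather than of 0, Jag1 alone of the 10 members passed, beside 5.79% of tested genes higher and 4.04% lower.

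**Figure D1:**
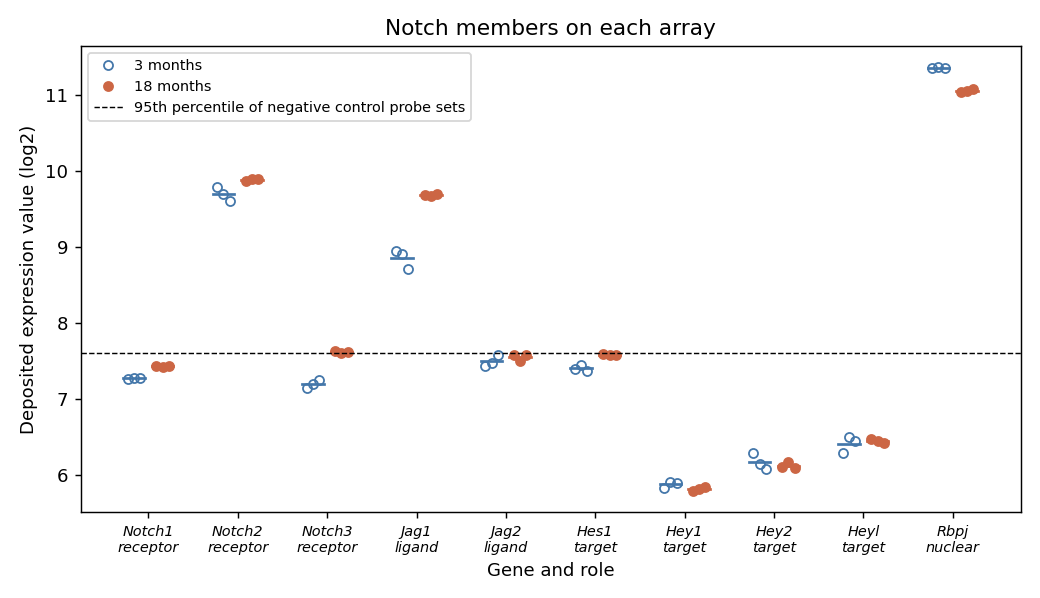
Deposited log2 value of each Notch member (vertical axis) on the 3 young (open points) and 3 aged arrays (filled points), with group means as short lines, and the 95th percentile of negative control probe sets at 7.61 as a dashed line. Jag1, Notch2 and Rbpj lie above that line at both ages, and the 4 target genes lie at or below it.

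The values are log2 expression values, and how far they stand above background differs among the members. The array carries negative control probe sets, 95% of which had a mean below 7.61, and by that measure Notch2, Jag1 and Rbpj were above the control range at both ages. Notch3 was above it at 18 months only, by a margin smaller than its spread, and Notch1, Jag2, Hes1, Hey1, Hey2 and Heyl were within it at both ages. For those within it at either age, only the difference of the measured values is reported, since a fold would understate or overstate the ratio by an unknown amount. Antigenomic probes, designed to match nothing in the mouse genome and so to read background, were higher in aged arrays in every class, by 0.01 to 0.29 on the log2 scale. The measured rises of Notch1, Notch2 and Hes1 are smaller than the upper end of that range and those of Notch3 and Jag1 are larger. Negative controls moved the other way, with a median difference of -0.26, as did positive controls, with a median of -0.15. Antigenomic classes with 19 to 25 G or C bases also read above 7.61, at 7.64 to 8.87 in young and 7.78 to 9.11 in aged arrays. The young mean of Jag1, 8.85, lay within that span, and those of Notch2 and Rbpj, 9.69 and 11.36, lay above it. A level above 7.61 therefore does not clear a gene, or a fold given for it, of background. What part background has in the member differences was not tested.

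Over the tested genes, Pearson's r between arrays of one age was 0.995 to 0.998 among young and 0.999 among aged arrays, against 0.976 to 0.978 between ages (genes are no independent replicates). The SD of a typical gene, taken as the median, was 0.074 over the young and 0.036 over the aged arrays. Young and aged samples may have differed in culture or hybridisation batch, which the sources used here do not give, and age and batch cannot be told apart. Of the stromal markers, 9 of 10 had a probe set, and Col1a1 was bright at 12.43 ± 0.01 in young and 13.22 ± 0.02 in aged cells (SD, n = 3 each). Thy1, Eng and Nt5e lay within the negative control range at both ages, and the other 6 lay above it. The sorted-against markers Ptprc (CD45) and Itgam (CD11b) lay at 3.65 and 5.26 in young and 3.62 and 5.24 in aged cells, within the negative control range, and of the markers sorted for, Itgb1 (CD29) was bright at 11.86 and 11.76 (limma, adjusted p = 0.025) and Ly6a (Sca-1) was not analysed here.

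The sequences before the transcription starts of 4 members are given here, those of the 3 members with the largest differences and of Hey2, a target gene. They are the 250 bases before the start, 5' to 3' on the gene's strand, from RefSeq on build GRCm38.p6, where 7 of the 10 members matched. Hes1, Hey1 and Heyl had no window, so Hey2 was the only target gene among the members to be searched. Capitals mark the letters TGGGAA, the core that RBPJ binds, and CACNAG, the N-box bound by HES proteins, on either strand. The E-box CACGTG was searched as well and was in none of the 8 member windows. The Jag1 window is chr2:137116521-137116770 (minus strand), that of Notch3 chr17:32166891-32167140 (minus strand), that of Rbpj chr5:53590096-53590345 (plus strand) and that of Hey2 chr10:30842784-30843033 (minus strand).
Jag1: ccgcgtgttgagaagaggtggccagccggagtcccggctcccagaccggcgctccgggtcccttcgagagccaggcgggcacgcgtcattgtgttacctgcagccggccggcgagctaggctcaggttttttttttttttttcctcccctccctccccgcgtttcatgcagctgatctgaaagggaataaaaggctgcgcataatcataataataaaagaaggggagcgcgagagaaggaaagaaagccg
Notch3: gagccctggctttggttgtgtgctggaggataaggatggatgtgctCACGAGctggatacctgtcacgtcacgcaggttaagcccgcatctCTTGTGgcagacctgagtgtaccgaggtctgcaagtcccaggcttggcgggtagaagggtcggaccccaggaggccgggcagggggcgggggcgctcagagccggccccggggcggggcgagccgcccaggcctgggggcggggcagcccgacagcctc
Rbpj: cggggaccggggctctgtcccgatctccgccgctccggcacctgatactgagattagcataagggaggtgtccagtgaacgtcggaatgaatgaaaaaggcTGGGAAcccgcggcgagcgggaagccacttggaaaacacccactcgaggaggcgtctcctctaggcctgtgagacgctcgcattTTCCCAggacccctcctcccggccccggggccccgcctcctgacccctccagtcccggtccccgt
Hey2: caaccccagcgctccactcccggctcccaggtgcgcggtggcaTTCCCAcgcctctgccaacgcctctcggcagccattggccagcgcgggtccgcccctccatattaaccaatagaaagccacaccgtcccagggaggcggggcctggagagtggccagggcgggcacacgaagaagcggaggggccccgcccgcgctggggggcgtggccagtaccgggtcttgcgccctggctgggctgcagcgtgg

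Jag1 held none of these motifs in this window, and Notch3 held 2 N-boxes. Rbpj held the RBPJ core at 2 places, starting 149 and 65 bases before the start, and Hey2 held it once, 207 bases before the start. Among all 32851 RefSeq promoter windows of this length, 21.6% held the RBPJ core, 36.7% the N-box and 6.02% the E-box. The RBPJ core was in 3 of 8 member windows, of which 2 were overlapping windows of Rbpj, and the N-box was also in 3, those of Notch1, Notch2 and Notch3. A match is a description of the letters, and a window without one says nothing of binding elsewhere.

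Jag1 encodes Jagged 1, a membrane ligand presented to Notch receptors on the next cell. Its log2 values were 8.95, 8.90 and 8.70 on the young arrays and 9.69, 9.67 and 9.70 on the aged arrays. All 3 aged arrays stood above all 3 young ones, and the gap between the groups was wider than the range within either. The difference was 0.83 on the log2 scale with a 95% interval from 0.70 to 0.97, or 1.78-fold (limma, adjusted p = 6.86e-06). Only 3.29% of all tested genes had a difference of greater size. Against a difference of 0.3, Jag1 still passed (limma, adjusted p = 0.000156).

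Jag2 encodes the second Jagged ligand. Its log2 values were 7.44, 7.47 and 7.58 on the young and 7.58, 7.49 and 7.57 on the aged arrays. The groups overlapped, and both means lay within the negative control range. The difference was 0.05 with a 95% interval from -0.07 to 0.17 (limma, adjusted p = 0.487), an interval that lies wholly below that of Jag1. The difference between both ligands' responses was not itself tested.

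Notch2 was the receptor above the control range at both ages. Its log2 values were 9.78, 9.69 and 9.60 on the young arrays and 9.87, 9.89 and 9.89 on the aged arrays. The aged arrays were close together and above every young array, while the young ones were spread over a range nearly as wide as the difference. The difference was 0.19 with a 95% interval from 0.09 to 0.30, or 1.14-fold (limma, adjusted p = 0.00855).

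Notch3, a receptor known from pericytes and smooth muscle around vessels, rose most among the receptors. Its log2 values were 7.15, 7.19 and 7.25 on the young and 7.63, 7.60 and 7.62 on the aged arrays. No aged array came near the young ones, and the step was 8.24 times the larger of both group SDs. The difference was 0.42 with a 95% interval from 0.32 to 0.52 (limma, adjusted p = 8.11e-05). Tested against a difference of 0.3 it did not pass (limma, adjusted p = 0.11), and the young values lay within the negative control range.

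Notch1 gave log2 values of 7.26, 7.28 and 7.27 on the young arrays and 7.43, 7.41 and 7.43 on the aged arrays. The groups were tight and did not overlap, with SDs of 0.01 each, and both lay within the negative control range. The difference was 0.15 with a 95% interval from 0.06 to 0.25 (limma, adjusted p = 0.0132). The call was lost with any 1 aged array left out, at adjusted p = 0.0524 to 0.0671, where the difference stayed at 0.15 to 0.16.

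**Figure D2:**
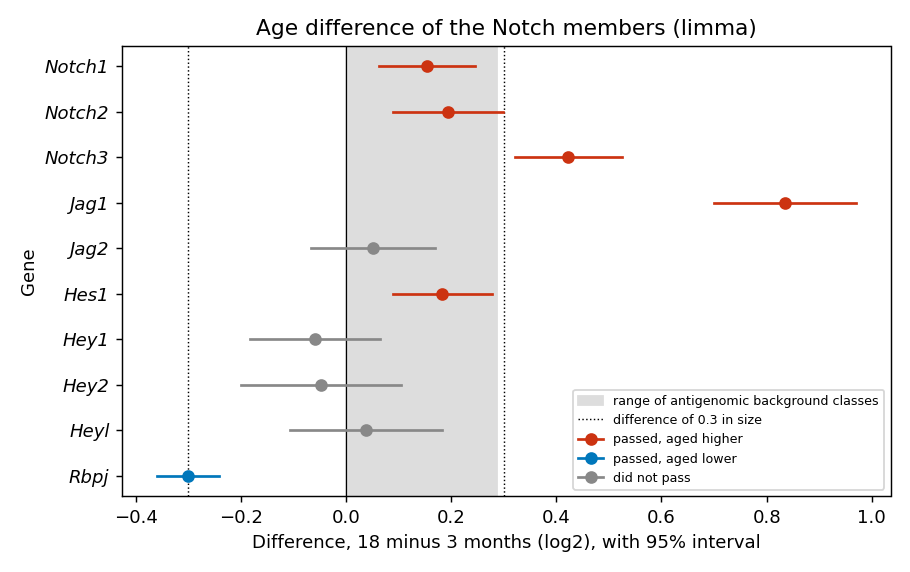
Difference between 18 and 3 months on the log2 scale (horizontal axis) with its 95% interval for each Notch member, coloured by the limma call, with the range of antigenomic background differences shaded and dotted lines at 0.3 in either direction. Jag1 at 0.83 and Notch3 at 0.42 lie to the right of the shaded range, and Rbpj at -0.30 is the member lower in aged cells.

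Rbpj encodes the protein through which all Notch receptors reach DNA, and which represses the same sites when no receptor fragment is bound. It was bright, above 99.4% of negative control probe sets. Its log2 values were 11.35, 11.37 and 11.36 on the young and 11.04, 11.05 and 11.08 on the aged arrays. Each group spanned a few hundredths, and the aged arrays were all lower. Rbpj fell by 0.30 on the log2 scale, with a 95% interval from -0.36 to -0.24 (limma, adjusted p = 2.25e-05), to 0.812 of the young level. The median positive control differed by -0.15. The difference of Rbpj was -0.22 after quantile normalization and -0.28 after median centring, and it passed in both.

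Hes1, a repressor and a direct target of Notch in many cells, rose by a small step within the negative control range. Its log2 values were 7.39, 7.44 and 7.37 on the young and 7.59, 7.58 and 7.58 on the aged arrays. The aged values nearly coincided and all lay above the young ones. The difference was 0.18 with a 95% interval from 0.09 to 0.28 (limma, adjusted p = 0.00665).

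The 3 HEY genes, which encode repressors related to HES1, did not pass the test and were the dimmest members. Hey1 gave 5.82, 5.91 and 5.88 on the young and 5.78, 5.82 and 5.84 on the aged arrays, a difference of -0.06 with an interval from -0.18 to 0.06 (limma, adjusted p = 0.446). Hey2 gave 6.28, 6.14 and 6.08 on the young and 6.09, 6.17 and 6.08 on the aged arrays, a difference of -0.05 with an interval from -0.20 to 0.10 (limma, adjusted p = 0.62). Heyl gave 6.29, 6.50 and 6.44 on the young and 6.47, 6.45 and 6.42 on the aged arrays, a difference of 0.04 with an interval from -0.11 to 0.18 (limma, adjusted p = 0.688). The groups overlapped in each of these genes, and 73.8% to 83.5% of negative control probe sets were dimmer. The intervals bound the measured values, and within the negative control range they set no bound on the change in transcript. The signs of Hey2 and Heyl turned when the first young array was left out, to 0.0095 and -0.021.

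**Figure D3:**
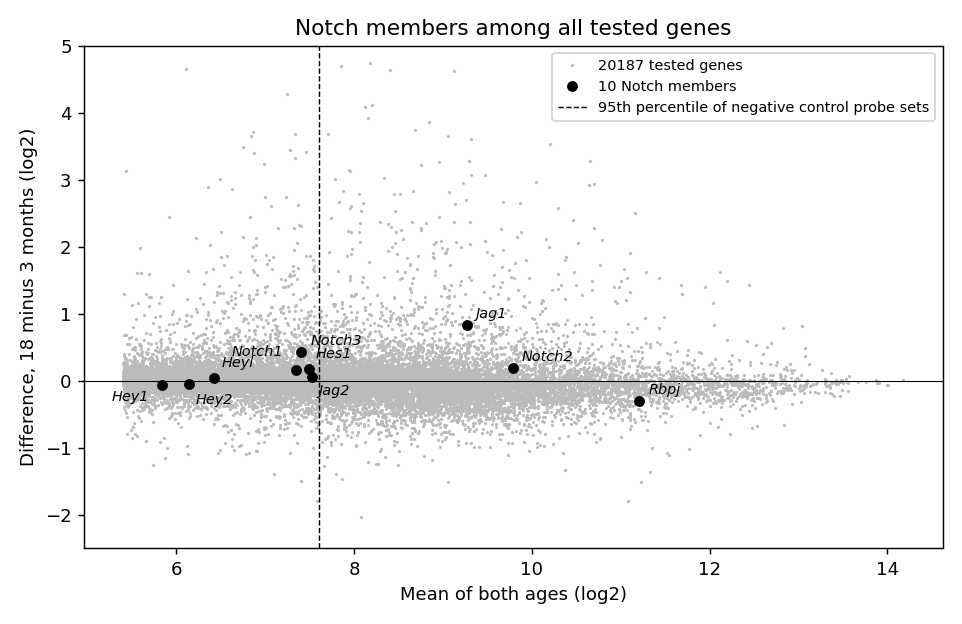
Difference between 18 and 3 months (vertical axis, log2) against the mean level (horizontal axis, log2) of the 20187 tested genes in grey and the 10 Notch members in black, with the negative control range ending at the dashed line. Jag1, at 0.83, is the member farthest from 0, and 3.29% of the tested genes lie farther from 0 than it does.

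The genes whose values over the 6 arrays ran closest to those of Jag1, by the Euclidean distance between values with each gene's mean subtracted, were Eya1, Ddah1 and Cped1. Eya1 encodes a transcriptional co-activator and phosphatase, and Ddah1 an enzyme that breaks down methylarginines. Their differences were 0.82, 0.81 and 0.86, and their distances were 0.046, 0.065 and 0.065. All 3 share with Jag1 a lowest value on young replicate 3 and a step of about the same size, as a choice by distance favours. The young mean of Cped1, 7.14, lay within the negative control range.

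Other genes of the pathway moved in both directions. Of 47 analysed, all of which passed the filter on low values, 12 rose, 8 fell and 27 did not pass, which is 25.5% and 17.0% of those tested, beside 18.4% and 22.1% of all tested genes. Their median difference was 0.00. Against a difference of 0.3, 2 rose and 1 fell, beside 5.79% and 4.04% of all tested genes.

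**Figure D4:**
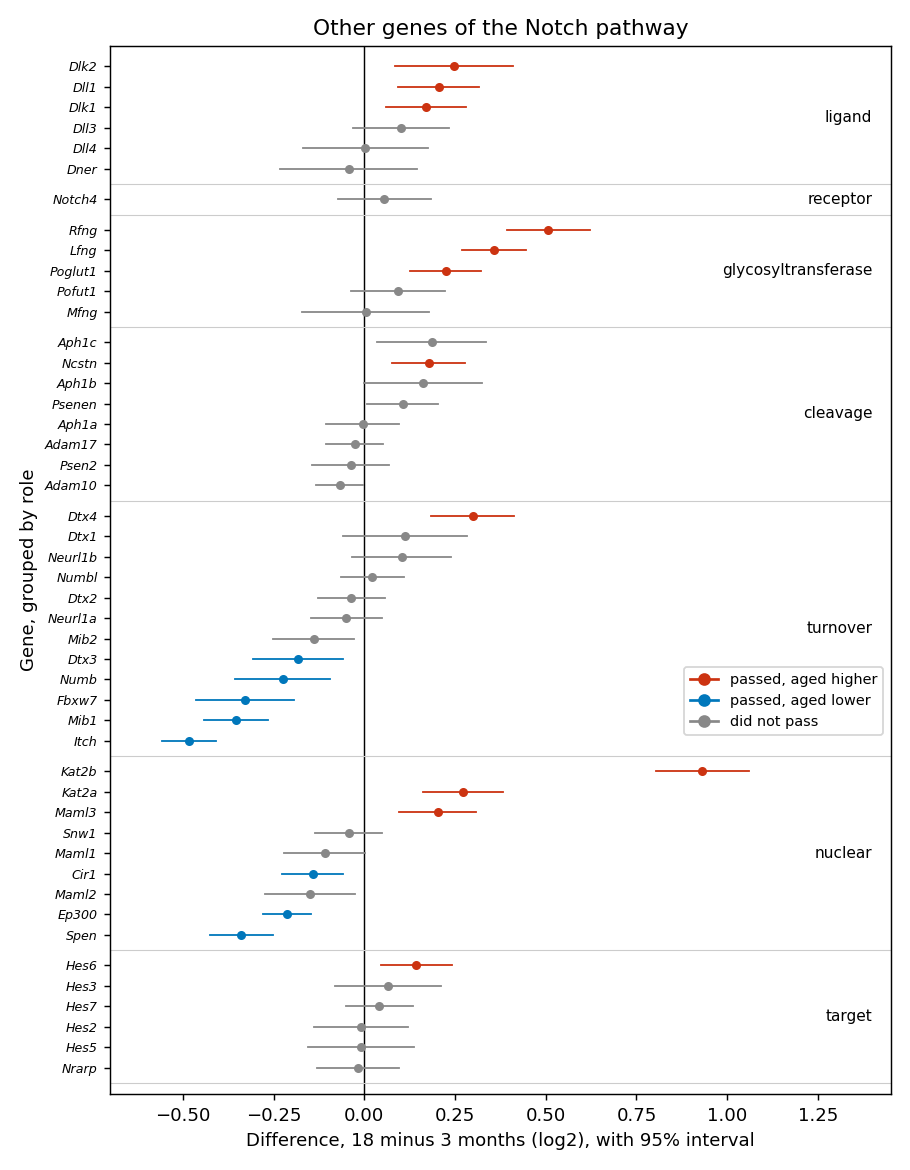
Difference between 18 and 3 months on the log2 scale (horizontal axis) with its 95% interval for the 47 other genes of the Notch pathway, grouped by role and coloured by the limma call. Kat2b at 0.93 stands apart at the upper end, and Itch at -0.48 is the lowest.

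Among the remaining ligands and the last receptor, 3 of 7 rose and none fell, beside 18.4% and 22.1% of all tested genes. All 7 were at low levels. Dlk2, an atypical ligand that lacks the domain for activating receptors, rose by 0.25 and Dll1, a canonical ligand, by 0.20, with both genes within the negative control range at either age. Dll4, the ligand of vessel sprouting, read 6.14 at both ages, and Notch4, a receptor of endothelium, read 7.18 and 7.23 (limma, adjusted p = 0.492).

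Of the 5 enzymes that add sugars to Notch receptors, 3 rose and none fell, beside 18.4% and 22.1% of all tested genes. Fringe enzymes extend the O-fucose on the receptors, which changes how well they answer Jagged and Delta-like ligands. Rfng went from 8.79 ± 0.10 to 9.29 ± 0.02 (SD, n = 3 each), a 1.42-fold rise (limma, adjusted p = 5.45e-05) that also passed against a difference of 0.3 (limma, adjusted p = 0.0173). Lfng went from 7.38 ± 0.01 to 7.73 ± 0.01 (SD, n = 3 each), from within the control range to just above it (limma, adjusted p = 8.86e-05). Mfng read 6.14 at both ages. Poglut1, which adds O-glucose to the receptors, rose 1.17-fold.

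Of the 8 measured genes for receptor cleavage, 1 rose and none fell, beside 18.4% and 22.1% of all tested genes. The gene that passed, named after its value was seen, was Ncstn, which encodes the gamma-secretase subunit nicastrin and rose 1.13-fold. The proteases of the first cut were bright and moved little, with Adam10 at 10.78 and 10.71 and Adam17 at 9.05 and 9.02 (limma, adjusted p = 0.0868 and 0.59). Aph1b and Aph1c are close copies, so their separate values are uncertain.

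Genes for endocytosis and turnover of ligands and receptors held 5 of the 8 decreases, with 5 of 12 lower and 1 higher, beside 22.1% and 18.4% of all tested genes. Whether this group differs from the other pathway genes was not tested. Itch, a ubiquitin ligase that marks Notch for degradation, went from 9.30 ± 0.02 to 8.82 ± 0.03 (SD, n = 3 each), to 0.716 of its young level (limma, adjusted p = 5.51e-06), and it also passed against a difference of 0.3 (limma, adjusted p = 0.00331). Mib1, the ligase that drives ligand endocytosis in the sending cell, fell by 0.35, and Fbxw7, which directs the Notch intracellular part to the proteasome, fell by 0.33, within the control range at both ages. Numb, an inhibitor of Notch at the membrane, fell by 0.22. Dtx4, a Deltex ligase of receptor traffic, was the gene of this group that rose, by 1.23-fold.

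Nuclear cofactors split evenly, with 3 of 9 higher and 3 lower, beside 18.4% and 22.1% of all tested genes. Kat2b, an acetyltransferase that works with the Notch complex and with many other activators, went from 8.11 ± 0.11 to 9.04 ± 0.02 (SD, n = 3 each), a 1.91-fold rise (limma, adjusted p = 2.58e-06). Its paralog Kat2a rose 1.21-fold, and Maml3, a Mastermind co-activator, rose by 0.20 within the control range. Spen, a co-repressor that binds RBPJ, fell by 0.34, and Ep300, an acetyltransferase recruited by Mastermind, fell by 0.21. Snw1 and Maml1 did not pass, with differences of -0.04 and -0.11.

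Beside 18.4% of all tested genes higher and 22.1% lower, none of 6 further target genes fell and 1 rose. It was Hes6, named after its value was seen, which encodes a relative of HES1 that opposes it and which rose by 0.14 (limma, adjusted p = 0.0265). Hes5, a common readout of Notch activity, read 7.62 and 7.62, and Nrarp, a feedback inhibitor induced by Notch, read 6.65 and 6.63 (limma, adjusted p = 0.925 and 0.824). Nrarp lay within the negative control range at both ages and Hes5 barely above it. Their readings therefore set no bound on the change in transcript.

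Jag1, Notch3 and Heyl are also expressed by vessel wall cells, so markers of other cell types are given beside them. In bulk samples, more cells of a type and more RNA per cell cannot be told apart. Of 9 mural markers 7 were tested, of which 3 rose and 2 fell, beside 18.4% and 22.1% of all tested genes. Acta2 was the brightest, at 12.75 and 12.96, and Tagln rose by 0.27. Des rose by 0.25 and Cnn1 fell by 0.22, both within the negative control range at both ages. Mcam fell by 0.25, from above that range to within it. The pericyte marker Rgs5 was not tested and read 4.96 and 4.95. The log2 of the summed mural level, most of it Acta2, ran from 13.05 to 13.11 in young and from 13.26 to 13.29 in aged arrays.

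Of 8 endothelial markers 6 were tested, all within the negative control range. Among these, 1 rose and 1 fell, beside 18.4% and 22.1% of all tested genes. Kdr rose from 5.93 to 6.62 and Tek fell by 0.22, Cldn5 was the brightest at 7.13 and 7.15, and Pecam1 and Cdh5 read 5.20 and 5.45 in young and 5.24 and 5.44 in aged cells. The log2 of the summed endothelial level was 8.89 to 9.04 in young and 9.04 to 9.07 in aged arrays. Of 7 blood and macrophage markers 3 were tested, of which 1 rose and none fell, beside 18.4% and 22.1% of all tested genes. The marker that rose was Cd14, by 0.35 within the control range, and Cd68 was the brightest at 7.29 and 7.17. The log2 of their summed level was 8.72 to 8.75 in young and 8.80 to 8.83 in aged arrays. Every endothelial and blood marker, tested or not, lay within the negative control range at both ages. Both sums therefore add readings from within that range, and their level cannot be set against 7.61.

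Stromal markers moved with age as well, with 5 of 9 higher and 2 lower, beside 18.4% and 22.1% of all tested genes. Prrx1, a transcription factor of limb mesenchyme, rose 1.81-fold, about as much as Jag1, and Col1a1 and Col1a2 rose 1.73-fold and 1.48-fold. Nt5e fell by 0.54 within the control range and Itgb1 fell by 0.10, while Thy1 and Eng did not pass (limma, adjusted p = 0.844 and 0.473). Thy1 read 6.31 in young and 6.28 in aged cells and Eng 6.53 and 6.60, within that range at both ages. The log2 of the summed stromal level was 14.19 to 14.22 in young and 14.65 to 14.69 in aged arrays. Of 4 measured osteoblast markers 3 were tested, of which 1 rose and 1 fell, beside 18.4% and 22.1% of all tested genes. Alpl rose from 7.37 to 8.66, and of these means only the aged one exceeded 7.61. Bglap fell by 0.43, while Sp7 read 6.16 and 6.29 and did not pass. The means of Bglap and Sp7 stayed under 7.61 in young and in aged cells. The log2 of the summed osteoblast level, of which Alpl was the gene that rose, was 8.80 to 8.85 in young and 9.32 to 9.39 in aged arrays. Pdgfra among the stromal and Runx2 and Spp1 among the osteoblast markers had no probe set listing them as its only gene and were not analysed. The part of these marker changes in the Notch member differences was not tested.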

How the data were processed

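Expression was measured on 6 arrays of sorted, cultured marrow stromal cells, 3 per age, grouped by their titles. The values are log2 expression values per probe set, deposited by the authors. The submitters' processing notes name MAS5, without its version; the background correction, the scaling and the summary over probes are not stated there. No detection calls were used, so level was judged from control probe sets. Of 32750 annotated probe sets, 31258 listed 1 gene, with symbols updated through RefSeq (GRCm38.p6).

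The probe set with the highest mean stood for a gene, each member having 1. Genes with a mean under 5.40, the median of all transcript clusters, were left out, which kept 20187 and every member. Ages were compared with limma 3.58.1 in R 4.3.3 (lmFit, eBayes with trend, Benjamini-Hochberg over all genes tested). With 3 arrays against 3, the smallest p of a two-sided exact permutation test is 0.1. The fit was tested on simulated data. Figures used matplotlib 3.10.9. The number of arrays limits the precision.

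The members, pathway genes and markers were chosen with earlier results of these data known. Named were all members, pathway genes past the test with the 15 largest differences plus Notch4, Dll1, Dll4, Hes5 and Nrarp, per marker list up to 3 passing genes and the brightest, and the 3 genes nearest to Jag1. Others are named for their role, or to show changes in both directions, after their values were seen. Alternatives were other scalings, filters, probe set rules and variance models, a test against 0.3, the replicate number as a block, and each array left out. A planned protein comparison was not made.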

Additional observations from a re-analysis of the deposited data

How the results depend on the processing

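Across quantile normalization, median centring, no filter or one at the 70th percentile, probe set means, every probe set tested, and eBayes without trend or robust, 5 members rose and 1 fell, and 11 to 13 pathway genes rose and 6 to 10 fell with the replicate block included. The filter at the 70th percentile left out Hey1, Hey2 and Heyl. The first 2 moved the median gene by 0.015 and 0.020. Over all genes 45.4% of calls were higher as deposited, 48.6% after quantile normalization and 50.7% after median centring, which turned 3724 higher and 4471 lower into 3958 and 3842. Tested against 0.3, 1 member rose and 0 fell, 2 pathway genes rose and 1 fell, and 1169 of all genes rose and 816 fell. The calls of Notch1, Notch2, Notch3, Hes1 and Rbpj were lost there because the tested difference was larger.

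With each array left out in turn, 4 to 5 members rose and 1 fell, 9 to 15 pathway genes rose and 6 to 11 fell, and 3006 to 4328 of all genes rose and 3711 to 4963 fell. Hey2 then ran from -0.092 to 0.0095 and Heyl from -0.021 to 0.082, reversing without the first young array. Notch1 passed without any 1 young array and did not pass without any 1 aged array (limma, adjusted p up to 0.0671).

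Young and aged arrays share replicate numbers, and the labels state no pairing. Deviations of same-numbered arrays from their group means gave r of -0.048, 0.068 and 0.015 across genes, none over 0.1. Such values cannot exclude a pairing whose effect is small beside the spread between arrays or confined to some genes. With the replicate block 5 members rose and 1 fell, 11 pathway genes rose and 7 fell, and 3524 of all genes rose and 4204 fell. Signal over background limits the 7 members within the negative control range at either age. The young level of Jag1 also lay within the span of the antigenomic classes richest in G and C.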
